A study of Mus musculus with 12 samples.

Results

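Macrophages that lack the DNA sensor cGAS were compared at rest with wild-type (WT) macrophages, gene by gene. The comparison took 3 untreated cGAS-/- samples (cGAS-/- UT) and 3 untreated WT samples (WT UT) of the 12 in the study, and kept the 8975 of 38739 gene symbols whose value reached 1 in at least 3 of these 6 samples. The values were read as TPM, which scale transcripts to a common total per sample, averaged over the transcripts of a symbol, so that their sums differ between samples. The difference between the groups was taken on log2(TPM + 1), so that it understates the change of genes with low values. The study asked how the loss of cGAS alters the response of macrophages, and the other 6 samples were the same cells after lipopolysaccharide (LPS, a bacterial cell wall component).

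Bone marrow-derived macrophages (BMDMs) of both genotypes received media control only. The mice had a C57BL/6J background, the cGAS-/- animals lacked the gene in every cell of the body, and the WT animals were bought while the knockout line came from another laboratory, so they were not littermates. A treatment time of 1 h is on the labels, whereas the methods give another, and the extraction text on the labels names neutrophils although the cells are called macrophages throughout. The replicates are named technical in a figure legend of the study, and the p-values measure only the spread between these samples and not that between animals. How many mice gave the cells, and whether the genotypes were cultured together, was not given in the sources used here, so genotype cannot be told apart from culture, animal or breeding source.

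cGAS binds double-stranded DNA in the cytosol and makes the cyclic dinucleotide cGAMP, which activates the adaptor STING. STING recruits the kinase TBK1, which phosphorylates the transcription factor IRF3, and the interferon-beta made in response acts back on the cell through its receptor to switch on interferon-stimulated genes. Resting macrophages keep a low tonic level of this interferon response, and BMDMs still divide in culture under macrophage colony-stimulating factor.

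Cgas itself, at chr9:78337802-78350535 on the GRCm39 build, checked the labels. It read 2.67, 2.89 and 2.68 TPM in WT UT and 0.0841, 0.11 and 0.291 TPM in cGAS-/- UT, with every knockout sample below every WT sample (log2 difference -1.69 ± 0.12, adjusted p = 0.000539). Of the distinct 31-base words in its annotated transcripts, 35.9% also occur in transcripts of other genes, mostly those of the gene model Gm68924. Of macrophage genes, Lyz2 (lysozyme) read 16654, 15974 and 16658 TPM in WT UT and 21141, 20375 and 19282 TPM in cGAS-/- UT. Cd68 (a lysosomal glycoprotein of macrophages) read 1042, 973 and 1031 TPM in WT UT and 1023, 1046 and 1009 TPM in cGAS-/- UT. Both were chosen after their values were seen, so they describe the samples and do not test the macrophage label. Csf1r and Adgre1, the receptor and surface antigen that define macrophages, were not analysed here. Correlations of log2(TPM + 1) between samples ran from 0.965 to 0.970 among WT UT, from 0.966 to 0.974 among cGAS-/- UT and from 0.943 to 0.951 between the genotypes. Protein-coding genes took 43.5% to 44.4% of the summed TPM in WT UT and 39.7% to 40.8% in cGAS-/- UT, and the read depth is unknown because the table holds no counts.

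At rest 419 genes were higher and 815 lower in cGAS-/- BMDMs at an adjusted p under 0.05 by limma, with Benjamini-Hochberg adjustment over all genes tested (4.67% and 9.08% of those tested, 13.7% in all). The drops were also the larger ones: 234 of them passed 1 on the log2 scale, compared with 48 of the rises. Past the study's stricter pair of thresholds (adjusted p under 0.05 and a log2 difference beyond 2) were 6 higher genes (0.0669%) and 48 lower genes (0.535%). The 3 samples of one genotype lay wholly above or below those of the other in 3104 genes (34.6%), including every gene that passed. The leading genes were also chosen for it, so a lack of overlap given below adds nothing to a call. The median difference over all genes was -0.03, and protein-coding genes made up 347 of the higher and 660 of the lower genes. The excess of lower genes depended on scaling: quantile normalization gave 662 higher and 652 lower genes, and scaling to a common total gave 298 and 1133. With all 12 samples of the study in the fit, 30 genes were higher and 171 lower. Leaving out any one sample cut the higher genes to between 203 and 278, and 12 genes were higher past both thresholds without WT UT replicate 2. The lower genes came to 518 without WT UT replicate 2 and to 509 without cGAS-/- UT replicate 2, the lowest of the 6 omissions (509 to 628).

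**Figure D1:**
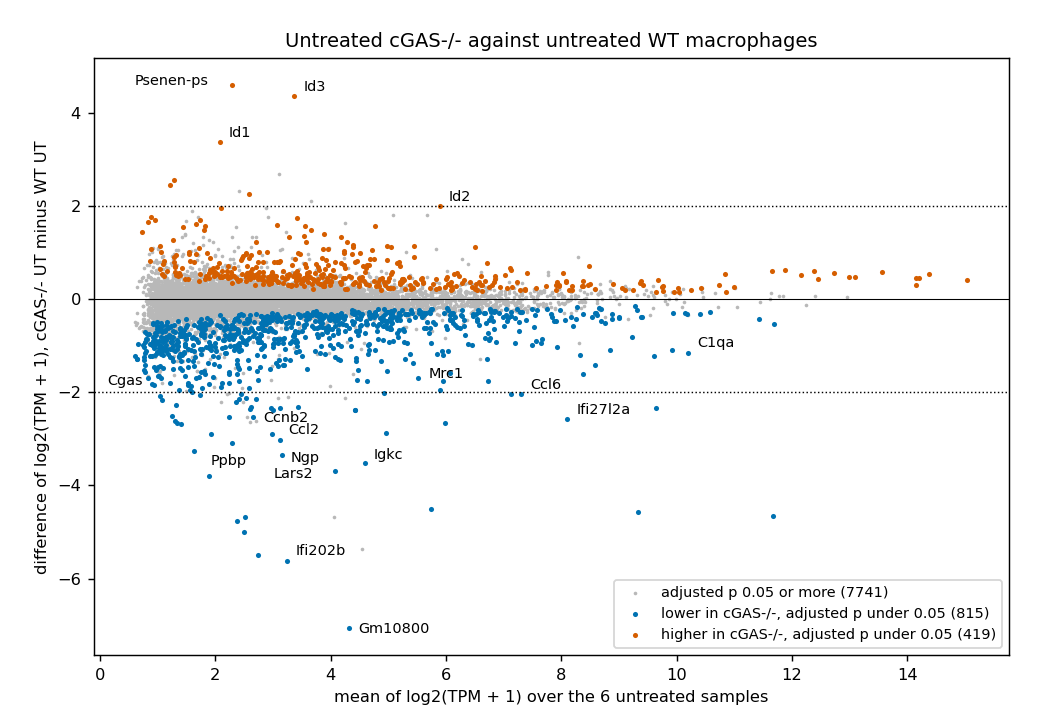
Each dot is 1 of the 8975 genes tested, by its mean log2(TPM + 1) over the 6 untreated samples (x axis) and its log2 difference, cGAS-/- UT minus WT UT (y axis), coloured by direction where the adjusted p was under 0.05, with dotted lines at a difference of 2 in either direction. More genes lie low than high beyond the lower line (48 against 6 that passed), with Id1, Id3 and Psenen-ps at the top.

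The largest rises among protein-coding genes were those of the inhibitors of DNA binding Id3 and Id1, and their relative Id2 came after Fabp7. These small helix-loop-helix proteins lack a DNA-binding region, hold E proteins and other partners away from DNA, and are classical targets of BMP and TGF-beta signals through SMAD proteins. Id3 (chr4:135870808-135873066) read 1.29, 0.885 and 1.74 TPM in WT UT and 44.8, 47.1 and 46.4 TPM in cGAS-/- UT, a 35.3-fold difference of the means (log2 difference 4.37 ± 0.14, adjusted p = 3.34e-05). Id1 (chr2:152566218-152579544) was barely present in WT and stood at 0.165, 0.338 and 0.432 TPM in WT UT and 14.2, 12 and 11.7 TPM in cGAS-/- UT (log2 difference 3.38 ± 0.12, adjusted p = 4.46e-05). Id2 (chr12:25143798-25147282) was already well expressed, with 28.4, 30.8 and 27.2 TPM in WT UT and 118, 121 and 114 TPM in cGAS-/- UT (log2 difference 1.99 ± 0.06, adjusted p = 3.04e-05). In none of the 3 genes did the genotypes overlap, which held for every gene that passed. The 3 knockout samples of each gene lay within a narrow band. Of its transcript words, 33.4% of Id2 occur in other annotated transcripts, compared with 12% for Id1 and 8.26% for Id3. The calls of Id2 and Fabp7 were lost with all 12 samples in the fit (adjusted p = 0.0522 to 0.218).

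The wider BMP, TGF-beta and Id list split in both directions: of its 25 tested members 8 rose and 5 fell, with a median of 0.18 against -0.03 over all genes (32% higher and 20% lower, against 4.67% and 9.08% of all genes). Smad6, an inhibitory SMAD that BMP signals induce, was near 0 in WT and rose, at 0.0585, 0.149 and 0.0255 TPM in WT UT and 2.3, 2.71 and 2.55 TPM in cGAS-/- UT (log2 difference 1.71 ± 0.12, adjusted p = 0.000495). Skil (SnoN, a co-repressor of SMAD complexes) read 4.39, 3.68 and 3.41 TPM in WT UT and 12.6, 12.9 and 15.4 TPM in cGAS-/- UT (log2 difference 1.60 ± 0.11, adjusted p = 0.000494). Tgfb3, one of the TGF-beta ligands, read 0.763, 1.46 and 1.36 TPM in WT UT and 8.05, 7.81 and 6.43 TPM in cGAS-/- UT (log2 difference 1.95 ± 0.16, adjusted p = 0.000803). The receptor genes Tgfbr1 (0.97) and Bmpr2 (0.48) rose as well, whereas Tgfbr2 (-0.37) and Tgfb1 (-0.31) fell.

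The other drops in this list were secreted factors. Bmp2, a ligand of the BMP receptors, read 20.5, 17.9 and 19.4 TPM in WT UT and 6.46, 7.36 and 4.81 TPM in cGAS-/- UT (log2 difference -1.51 ± 0.14, adjusted p = 0.00143). Gdf3, a ligand of the same superfamily, read 11, 10.8 and 9.0 TPM in WT UT and 1.53, 1.58 and 1.48 TPM in cGAS-/- UT (log2 difference -2.15 ± 0.10, adjusted p = 0.000103). Grem1, a secreted BMP antagonist, read 3.94, 3.87 and 4.45 TPM in WT UT and 0.825, 0.179 and 0.0789 TPM in cGAS-/- UT (log2 difference -1.94 ± 0.21, adjusted p = 0.00256). Smad1, which carries the BMP signal, read 3.85, 2.79 and 2.64 TPM in WT UT and 3.46, 3.33 and 2.76 TPM in cGAS-/- UT, with overlapping samples (log2 difference 0.04 ± 0.14, adjusted p = 0.893). Neither protein nor signalling was measured. The 8 rises came to no fewer than 7 when 1 sample was left out, while 3 fell without WT UT replicate 1, 2 or 3 or cGAS-/- UT replicate 2, and 5 rose and 3 fell with all 12 samples in the fit.

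The promoter of Id3 is shown because it holds the GC-rich SMAD motif GGCGCC, in capitals below. The windows here run over 300 bases, of which 250 lie before the start of the GENCODE canonical transcript (GRCm39), and that of Id3 is chr4:135870558-135870857 on the plus strand. This motif was found in 17.1% of the promoters of tested protein-coding genes, in 20.5% of those of higher genes and in 12.6% of those of lower genes. The windows of Id1, Id2 and Smad6 do not hold these letters.
Id3: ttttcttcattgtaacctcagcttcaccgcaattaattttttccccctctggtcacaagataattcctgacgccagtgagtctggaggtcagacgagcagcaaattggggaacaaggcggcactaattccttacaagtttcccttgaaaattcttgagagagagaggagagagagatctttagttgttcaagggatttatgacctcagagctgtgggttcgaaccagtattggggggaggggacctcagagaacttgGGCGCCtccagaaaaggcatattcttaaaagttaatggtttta

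Among the other leading rises were genes of several kinds. Fabp7, a fatty acid-binding protein, read 2.21, 2.67 and 0.70 TPM in WT UT and 11.7, 10.2 and 14.9 TPM in cGAS-/- UT (log2 difference 2.27 ± 0.30, adjusted p = 0.00572). Plxdc2, a transmembrane protein with a plexin-like domain, read 4.91, 5.2 and 4.41 TPM in WT UT and 16.7, 20.2 and 19 TPM in cGAS-/- UT (log2 difference 1.75 ± 0.10, adjusted p = 0.000169). Sox4, a transcription factor, was 6.42, 5.69 and 5.39 TPM in WT UT and 20.7, 19 and 18.3 TPM in cGAS-/- UT (log2 difference 1.57 ± 0.09, adjusted p = 0.000169). All 3 genes were above WT in every knockout sample. Hgsnat, the lysosomal enzyme that acetylates heparan sulfate, was unusually even at 16, 14.4 and 14.1 TPM in WT UT and 45.1, 46.5 and 46.4 TPM in cGAS-/- UT (log2 difference 1.57 ± 0.06, adjusted p = 7.31e-05). St3gal5 (GM3 ganglioside synthase) stood at 5.9, 7.23 and 6.6 TPM in WT UT and 19.5, 22 and 19.3 TPM in cGAS-/- UT (log2 difference 1.49 ± 0.09, adjusted p = 0.000314). Htr2b, a serotonin receptor, stood at 8.57, 8.78 and 7.19 TPM in WT UT and 22.6, 22.5 and 24 TPM in cGAS-/- UT (log2 difference 1.39 ± 0.09, adjusted p = 0.000314). Samples of the genotypes did not overlap in these genes either. Gm49358 was listed at 0 in the 3 WT samples and at 2.76, 1.29 and 3.56 TPM in the knockout, and 98% of its transcript words are those of Nt5dc3. The calls of Fabp7, Hgsnat and Htr2b were lost with all 12 samples in the fit (adjusted p = 0.184 to 0.266).

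Genes of cell division gave the largest number of drops of any list. Of 58 tested mitosis genes (of 94 in the list), 49 fell (84.5%, against 9.08% of all genes) and none rose, and all 58 had a difference below 0. The median difference was -1.03, and the mean log2(TPM + 1) of the members was 2.38 to 2.44 in the WT samples and 1.25 to 1.30 in the knockout samples. Ccnb2, a cyclin that drives entry into mitosis, read 13.7, 14.2 and 14.1 TPM in WT UT and 2.47, 1.43 and 1.11 TPM in cGAS-/- UT (log2 difference -2.52 ± 0.18, adjusted p = 0.00053). Ube2c, the ubiquitin-conjugating enzyme of the anaphase-promoting complex, read 10.8, 11.8 and 16.4 TPM in WT UT and 1.95, 1.43 and 1.76 TPM in cGAS-/- UT (log2 difference -2.35 ± 0.17, adjusted p = 0.000493). Birc5 (survivin, a subunit of the chromosomal passenger complex) read 13.9, 17.5 and 18.6 TPM in WT UT and 2.61, 2.51 and 2.36 TPM in cGAS-/- UT (log2 difference -2.33 ± 0.12, adjusted p = 0.000137). The lowest WT sample was several times the highest knockout sample in each of these genes. Ckap2l, a spindle protein, read 9.84, 10.6 and 9.59 TPM in WT UT and 1.35, 2.13 and 0.839 TPM in cGAS-/- UT (log2 difference -2.21 ± 0.19, adjusted p = 0.00111). Chosen after their values were seen, the proliferation marker Mki67 (-2.14 ± 0.10, from 12.3 to 13.3 TPM in WT to 1.88 to 2.51 TPM in the knockout) and the topoisomerase Top2a (-2.03 ± 0.10) fell by a little less than these, while Cdk1, the mitotic kinase itself, fell least of those named (-0.64 ± 0.15). The count of lower mitosis genes ran from 40 to 51 over the alternatives other than a floor of 5 TPM, under which 13 fell among fewer members tested.

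DNA replication genes were lower too, by a smaller amount. Of 40 tested members 23 fell (57.5%, against 9.08% of all genes) and 1 rose (2.5%, against 4.67%). The median was -0.61, with a mean log2(TPM + 1) of 2.63 to 2.66 in WT and 1.98 to 2.04 in the knockout. With no filter on low values 11 of 47 fell, and with a replicate block 11 of 40. Rrm2, the regulated subunit of ribonucleotide reductase, read 11.9, 11.3 and 9.93 TPM in WT UT and 1.74, 1.64 and 1.9 TPM in cGAS-/- UT (log2 difference -2.12 ± 0.09, adjusted p = 9.67e-05), although 44.5% of its transcript words occur in other gene models. Tk1 (thymidine kinase) read 5.41, 6.16 and 5.98 TPM in WT UT and 1.89, 1.6 and 1.18 TPM in cGAS-/- UT (log2 difference -1.43 ± 0.13, adjusted p = 0.00114). E2f8, an atypical E2F repressor of S phase, read 3.81, 2.79 and 2.39 TPM in WT UT and 0.406, 0.683 and 1.08 TPM in cGAS-/- UT (log2 difference -1.22 ± 0.20, adjusted p = 0.0116), a call lost with a replicate block. In contrast Pcna, the sliding clamp of DNA polymerases and the member that rose, stood at 91.1, 102 and 99.7 TPM in WT UT and 128, 132 and 139 TPM in cGAS-/- UT (log2 difference 0.44 ± 0.06, adjusted p = 0.0062). Ccne2 (cyclin E2) read 3.04, 3.43 and 2.48 TPM in WT UT and 0.631, 0.389 and 1.37 TPM in cGAS-/- UT (log2 difference -1.18 ± 0.22, adjusted p = 0.0178), and its call was lost in 4 of the 6 omissions of a sample (adjusted p = 0.0501 to 0.0664). In this list 13 fell without cGAS-/- UT replicate 2, 14 fell without WT UT replicate 2 or cGAS-/- UT replicate 1, and 0 rose and 9 fell with all 12 samples in the fit. Of 14 tested replication-dependent histone genes, 2 fell, H4c9 (log2 difference -1.53 ± 0.21, adjusted p = 0.00632) and H2bc4 (log2 difference -0.46 ± 0.07, adjusted p = 0.0097), which is 14.3% against 9.08% of all genes, and 1 fell with all 12 samples in the fit. Of 17 targets of p53, the damage-activated brake on division, 3 fell and none rose (median -0.25, 0% higher and 17.6% lower, against 4.67% and 9.08% of all genes), with 1 lower under all 12 samples and 7 after scaling to a common total: Ckap2 (-1.17), which is also a spindle gene, Btg2 (-0.53) and Sesn1 (-0.31, lost in 5 omissions, with adjusted p = 0.0554 to 0.0668). The calls of H2bc4, Btg2 and Sesn1 were lost with all 12 samples in the fit (adjusted p = 0.92 to 0.9997).

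**Figure D2:**
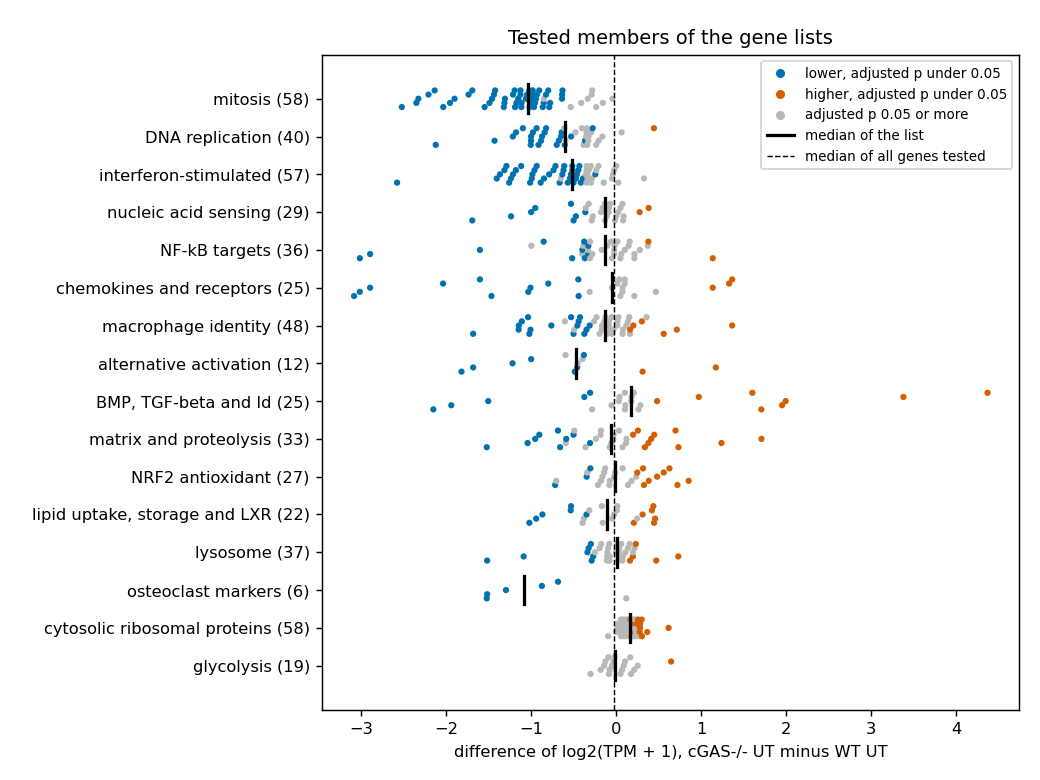
Each dot is a tested member of a gene list (rows, number tested in brackets) at its log2 difference, cGAS-/- UT minus WT UT (x axis), blue or orange where it passed at an adjusted p under 0.05, with the list's median as a bar and the median of all genes (-0.03) as a dashed line. The medians of the mitosis, DNA replication and interferon-stimulated lists lie left of the line, and the BMP, TGF-beta and Id list reaches farthest right.

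The promoters of Ccnb2 and Ube2c are shown as the pair of mitosis genes with the largest drops. CCAAT boxes, read by NF-Y, and the CHR element, searched as TTTGAA and read by the DREAM and MuvB complexes, are known features of late cell cycle promoters, and both are in capitals on either strand. Both motifs together were in 39.7% of the 58 mitosis promoters tested, in 5.39% of all tested protein-coding promoters, and in 6.29% of the promoters of lower genes outside the mitosis and DNA replication lists. E2F motifs (TTCCCGC or TTGGCGC or TTCGCGC or TTGCCGC, either strand) were in 47.5% of replication promoters and 16.3% of all. The promoter windows of Birc5 and Ccna2 did not hold a CCAAT box or CHR. The sequences are those of chr9:70328825-70329124 (minus strand) and chr2:164611568-164611867 (plus strand).
Ccnb2: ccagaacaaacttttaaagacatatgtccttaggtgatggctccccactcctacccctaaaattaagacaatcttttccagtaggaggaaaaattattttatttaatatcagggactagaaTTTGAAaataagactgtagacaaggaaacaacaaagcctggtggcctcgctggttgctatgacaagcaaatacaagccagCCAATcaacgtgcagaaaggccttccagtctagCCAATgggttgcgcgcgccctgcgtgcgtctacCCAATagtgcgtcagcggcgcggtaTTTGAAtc
Ube2c: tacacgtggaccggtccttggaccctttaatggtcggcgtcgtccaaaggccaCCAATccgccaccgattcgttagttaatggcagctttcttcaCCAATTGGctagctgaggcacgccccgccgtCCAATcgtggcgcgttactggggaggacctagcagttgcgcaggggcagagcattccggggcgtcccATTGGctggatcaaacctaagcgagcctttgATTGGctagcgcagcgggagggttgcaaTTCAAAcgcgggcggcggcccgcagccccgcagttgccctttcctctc

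Interferon-stimulated genes were lower in the untreated knockout as a group. Of 57 tested members 37 fell (64.9%, against 9.08% of all genes) and none rose, with a median of -0.52 and a mean log2(TPM + 1) of 3.80 to 3.90 in WT and 3.20 to 3.28 in the knockout. Ifi27l2a, a small membrane protein strongly induced by interferon, read 589, 661 and 772 TPM in WT UT and 136, 121 and 83.6 TPM in cGAS-/- UT (log2 difference -2.58 ± 0.19, adjusted p = 0.000584). Oas1g, which belongs to the oligoadenylate synthetases that activate RNase L, read 10.4, 16.4 and 15.8 TPM in WT UT and 6.06, 4.28 and 3.81 TPM in cGAS-/- UT (log2 difference -1.41 ± 0.21, adjusted p = 0.00923), and 61.6% of its transcript words are shared, mainly with Oas1a. Slfn1, of the Schlafen family, read 3.53, 6.42 and 5.09 TPM in WT UT and 1.75, 0.982 and 1.18 TPM in cGAS-/- UT (log2 difference -1.37 ± 0.21, adjusted p = 0.0101). No knockout sample of these genes reached its lowest WT sample. Cmpk2, a mitochondrial nucleotide kinase, read 2.31, 3.04 and 4.49 TPM in WT UT and 0.685, 0.568 and 0.801 TPM in cGAS-/- UT (log2 difference -1.32 ± 0.20, adjusted p = 0.00874). Isg15, the ubiquitin-like modifier (chosen after its values were seen, as was Irf7), read 33.5, 29.3 and 35.3 TPM in WT UT and 11.3, 16 and 12.2 TPM in cGAS-/- UT (log2 difference -1.26 ± 0.14, adjusted p = 0.00272). Irf7, which amplifies interferon production, read 2.67, 3.76 and 4.44 TPM in WT UT and 0.837, 1.27 and 1.23 TPM in cGAS-/- UT (log2 difference -1.12 ± 0.18, adjusted p = 0.0102). In Ifi27l2a, Cmpk2 and Irf7 the highest value was that of WT UT replicate 3 and the lowest WT value that of replicate 1, without overlap with the knockout. Without 1 sample 26 to 33 members fell and with a replicate block 23, whereas only 2 did with all 12 samples in the fit. The calls of Oas1g and Slfn1 were lost with the replicate block. The calls of Oas1g and Cmpk2 were lost with all 12 samples in the fit (adjusted p = 0.188 to 0.298).

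Outside the list, Ifi202b showed the largest drop of any protein-coding gene. It encodes a p200-family DNA-binding protein, is itself interferon-inducible, and is known for expression that differs widely between inbred mouse strains. Its values (chr1:173790134-173810414) were 62.1, 71.8 and 62.7 TPM in WT UT and 0.349, 0 and 0.823 TPM in cGAS-/- UT (log2 difference -5.62 ± 0.21, adjusted p = 5.41e-05). With LPS it read 326, 484 and 181 TPM in WT LPS and 0.629, 0.447 and 0.178 TPM in cGAS-/- LPS, and 1.13% of its transcript words occur elsewhere. The knockout samples were thus at or near 0 in both conditions.

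The promoters of Isg15 and Oas1g are shown because each holds an interferon-stimulated response element (ISRE), searched on both strands as GAAA, any 2 bases and GAAA, with overlapping matches in capitals. The motif was in 51.8% of the tested promoters of this list, in 58.3% of those of its lower members, in 3.93% of all tested protein-coding promoters and in 4.81% of those of lower genes outside the list. The windows of Ifi27l2a, Irf7 and Cmpk2 did not hold these letters. The windows are chr4:156285254-156285553 and chr5:121025596-121025895, both on the minus strand.
Isg15: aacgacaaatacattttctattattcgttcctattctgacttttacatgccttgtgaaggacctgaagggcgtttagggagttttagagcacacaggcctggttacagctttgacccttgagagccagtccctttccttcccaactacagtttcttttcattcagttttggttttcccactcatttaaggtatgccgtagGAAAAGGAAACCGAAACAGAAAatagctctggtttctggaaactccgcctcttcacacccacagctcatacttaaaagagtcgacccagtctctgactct
Oas1g: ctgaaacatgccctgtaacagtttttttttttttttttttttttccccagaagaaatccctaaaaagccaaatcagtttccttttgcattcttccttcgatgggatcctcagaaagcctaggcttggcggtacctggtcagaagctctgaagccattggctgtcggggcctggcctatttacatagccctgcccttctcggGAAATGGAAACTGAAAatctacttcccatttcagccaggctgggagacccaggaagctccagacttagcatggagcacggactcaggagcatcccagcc

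In the wider pathway of cGAS most of the genes that passed were lower. Of 29 tested genes of nucleic acid sensing 8 fell, Cgas included, and 2 rose (median -0.13, 6.9% higher and 27.6% lower, against 4.67% and 9.08% of all genes). Tbk1, the kinase downstream of STING, read 11.7, 13.1 and 12.7 TPM in WT UT and 15.2, 15.9 and 14.9 TPM in cGAS-/- UT (log2 difference 0.28 ± 0.07, adjusted p = 0.0453), a call lost without any one of the samples (adjusted p = 0.0802 to 0.148). Irf3 read 7.01, 8.76 and 9.14 TPM in WT UT and 6.52, 6.92 and 6.48 TPM in cGAS-/- UT, with the knockout samples lowest but without passing (log2 difference -0.28 ± 0.11, adjusted p = 0.15). Trex1, the exonuclease that removes cytosolic DNA, read 25.3, 31.1 and 30.5 TPM in WT UT and 20.7, 21.6 and 16.9 TPM in cGAS-/- UT (log2 difference -0.53 ± 0.12, adjusted p = 0.0351), lost in 5 of the 6 omissions (adjusted p = 0.0615 to 0.11), and all of its transcript words are shared with Atrip. Sting1 was not analysed here. Ikbke, a kinase related to TBK1 and itself inducible, read 18.6, 20.1 and 19 TPM in WT UT and 9.54, 8.53 and 9.25 TPM in cGAS-/- UT (log2 difference -1.0 ± 0.07, adjusted p = 0.000469). Tlr9, the endosomal receptor for CpG DNA, read 21.9, 26 and 22.4 TPM in WT UT and 12.3, 11.7 and 10.8 TPM in cGAS-/- UT (log2 difference -0.95 ± 0.09, adjusted p = 0.00134). Zbp1, a sensor of Z-form nucleic acids, read 3.81, 4.71 and 8.15 TPM in WT UT and 1.77, 2.41 and 1.03 TPM in cGAS-/- UT (log2 difference -1.24 ± 0.29, adjusted p = 0.0391), lost in 5 of 6 omissions (adjusted p = 0.0574 to 0.103). Of the list as a whole, 0 rose without WT UT replicate 1, 2 or 3, 1 rose without cGAS-/- UT replicate 1, 2 or 3, 3 fell without WT UT replicate 2 or cGAS-/- UT replicate 1 or 2, 4 fell without cGAS-/- UT replicate 3, 5 fell without WT UT replicate 3, and 0 rose and 1 fell with all 12 samples in the fit. The calls of Tbk1, Trex1, Ikbke, Tlr9 and Zbp1 were lost with all 12 samples in the fit (adjusted p = 0.0858 to 0.9997).

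More chemokine and chemokine receptor genes fell than rose. Of 25 tested chemokines and receptors 11 fell and 3 rose (median -0.05, 12% higher and 44% lower, against 4.67% and 9.08% of all genes), and 11 fell in each omission of a sample but 3 with all 12 samples in the fit, where 2 rose. Ccl2, the main ligand of Ccr2, read 21.9, 25.4 and 23.9 TPM in WT UT and 1.95, 2.7 and 1.61 TPM in cGAS-/- UT (log2 difference -3.02 ± 0.14, adjusted p = 0.000112). Ccl7, which binds the same receptor, read 19.8, 21.2 and 20.4 TPM in WT UT and 1.86, 1.06 and 3.07 TPM in cGAS-/- UT (log2 difference -2.90 ± 0.24, adjusted p = 0.000828). Ppbp (a platelet basic protein chemokine of the CXC class) read 9.62, 15.7 and 15.5 TPM in WT UT and 1.18, 0.72 and 0.279 TPM in cGAS-/- UT (log2 difference -3.08 ± 0.26, adjusted p = 0.000892). Each knockout value of these 3 genes was well under the lowest WT value. Ccl6 and Ccl9, abundant chemokines of myeloid cells, differed by less on the log2 scale: Ccl6 read 314, 313 and 328 TPM in WT UT and 81.9, 73.8 and 74.9 TPM in cGAS-/- UT (log2 difference -2.04 ± 0.05, adjusted p = 2.58e-05). Ccl9 read 563, 610.1 and 560.4 TPM in WT UT and 179.9, 198 and 191 TPM in cGAS-/- UT (log2 difference -1.60 ± 0.06, adjusted p = 4.42e-05). The receptor Ccr2 fell (-1.01 ± 0.08), as did Ccr1 (-1.47 ± 0.22). All of these except the receptors and Ppbp lie on chromosome 11. The calls of Ccl7 and Ccl9 were lost with all 12 samples in the fit (adjusted p = 0.0843 to 0.193).

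A few chemokine genes rose. Ccl4 (macrophage inflammatory protein), also on chromosome 11, read 25.8, 32.7 and 26.9 TPM in WT UT and 76, 58.1 and 57.8 TPM in cGAS-/- UT (log2 difference 1.14 ± 0.14, adjusted p = 0.00401), whereas its neighbour Ccl3 did not pass (0.21 ± 0.08). Cx3cr1, the fractalkine receptor of patrolling monocytes and resident macrophages, read 5.93, 6.69 and 6.23 TPM in WT UT and 17.7, 17.2 and 18.4 TPM in cGAS-/- UT (log2 difference 1.36 ± 0.07, adjusted p = 0.000141). Cxcl14 was higher as well (1.33 ± 0.08). Of 36 tested targets of NF-kB, the transcription factor of inflammatory genes, 10 fell and 2 rose (median -0.14, 5.56% higher and 27.8% lower, against 4.67% and 9.08% of all genes), led by the chemokines above. Among these targets 5 fell without WT UT replicate 1, 6 fell without WT UT replicate 2 or cGAS-/- UT replicate 2, and 0 rose and 1 fell with all 12 samples in the fit. Il1b did not pass, at 6.21, 4.08 and 2.17 TPM in WT UT and 2.45, 4.68 and 8.24 TPM in cGAS-/- UT (log2 difference 0.21 ± 0.43, adjusted p = 0.802). The call of Ccl4 was lost with all 12 samples in the fit (adjusted p = 0.832).

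Among macrophage identity genes, several surface and complement genes shifted. Of 48 tested members 16 fell, 6 rose and 26 did not pass (median -0.13, 12.5% higher and 33.3% lower, against 4.67% and 9.08% of all genes). Leaving out 1 sample kept the counts at 14 to 16 fallen and 4 to 6 risen, whereas 1 fell and 1 rose with all 12 samples in the fit. Mrc1 (the mannose receptor CD206) read 84.3, 85.2 and 73.4 TPM in WT UT and 23.5, 25.6 and 24.3 TPM in cGAS-/- UT (log2 difference -1.68 ± 0.08, adjusted p = 0.000103). C1qa, the A chain of complement C1q, read 1764, 1729 and 1751 TPM in WT UT and 831, 809.9 and 732 TPM in cGAS-/- UT (log2 difference -1.15 ± 0.05, adjusted p = 0.000112), a larger drop than in C1qb (-0.42) or C1qc (-0.31), which lie beside it. Siglec1 (CD169, an interferon-responsive sialic acid receptor) read 18.2, 21.8 and 20.5 TPM in WT UT and 9.34, 8.92 and 7.4 TPM in cGAS-/- UT (log2 difference -1.15 ± 0.11, adjusted p = 0.00143). Knockout samples were below all WT samples in the 3 genes. The Fc receptors Fcgr4 (-1.11) and Fcgr2b (-1.04) fell, and Apoe (-0.53) and Spp1 (-0.50) fell by less. On the other side Msr1, a scavenger receptor (0.71 ± 0.09), Hmox1 (0.56 ± 0.04) and Lyz2 (0.30 ± 0.04) rose. Itgam, the integrin CD11b, read 47.3, 45.2 and 43.9 TPM in WT UT and 45.4, 44.8 and 43.3 TPM in cGAS-/- UT (log2 difference -0.03 ± 0.05, adjusted p = 0.758). The calls of C1qa and Siglec1 were lost with all 12 samples in the fit (adjusted p = 0.156 to 0.158).

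Among 12 tested genes of alternative (interleukin-4 type) activation, 7 fell and 2 rose (median -0.47, 16.7% higher and 58.3% lower, against 4.67% and 9.08% of all genes). Of them 1 rose without WT UT replicate 1, 2 or 3 or cGAS-/- UT replicate 1, 2 or 3, 4 fell without WT UT replicate 2 or cGAS-/- UT replicate 2, and 0 rose and 3 fell with all 12 samples in the fit. Chil3 (Ym1, a chitinase-like secreted protein) read 4.2, 6.92 and 7.33 TPM in WT UT and 0.836, 0.882 and 1.26 TPM in cGAS-/- UT (log2 difference -1.82 ± 0.20, adjusted p = 0.00274), with 36.8% of its transcript words shared with relatives. Il1rn, the interleukin-1 receptor antagonist, read 16.5, 17.1 and 15.6 TPM in WT UT and 4.94, 6.17 and 8.82 TPM in cGAS-/- UT (log2 difference -1.22 ± 0.18, adjusted p = 0.00823). Tgm2, a transglutaminase, went the other way at 12.7, 13.1 and 13.3 TPM in WT UT and 30.3, 29 and 32.5 TPM in cGAS-/- UT (log2 difference 1.17 ± 0.06, adjusted p = 0.000169). The linked pair Tmem176a and Tmem176b, ion channel-like membrane genes of myeloid cells, fell together, Tmem176a at 18.3, 16.6 and 16.7 TPM in WT UT and 2.67, 2.34 and 2.53 TPM in cGAS-/- UT (log2 difference -2.37 ± 0.08, adjusted p = 3.36e-05). Tmem176b read 24.5, 21.8 and 23.4 TPM in WT UT and 4.2, 3.97 and 3.45 TPM in cGAS-/- UT (log2 difference -2.32 ± 0.09, adjusted p = 5.1e-05). They share transcript words (20.1% of those of Tmem176a and 14.1% of those of Tmem176b), so the 2 drops may not be independent, which was not tested. F7, coagulation factor VII, read 20.9, 17.4 and 17.4 TPM in WT UT and 2.75, 2.52 and 3.34 TPM in cGAS-/- UT (log2 difference -2.34 ± 0.11, adjusted p = 0.000132). The calls of Il1rn, Tgm2 and F7 were lost with all 12 samples in the fit (adjusted p = 0.134 to 0.257).

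**Figure D3:**
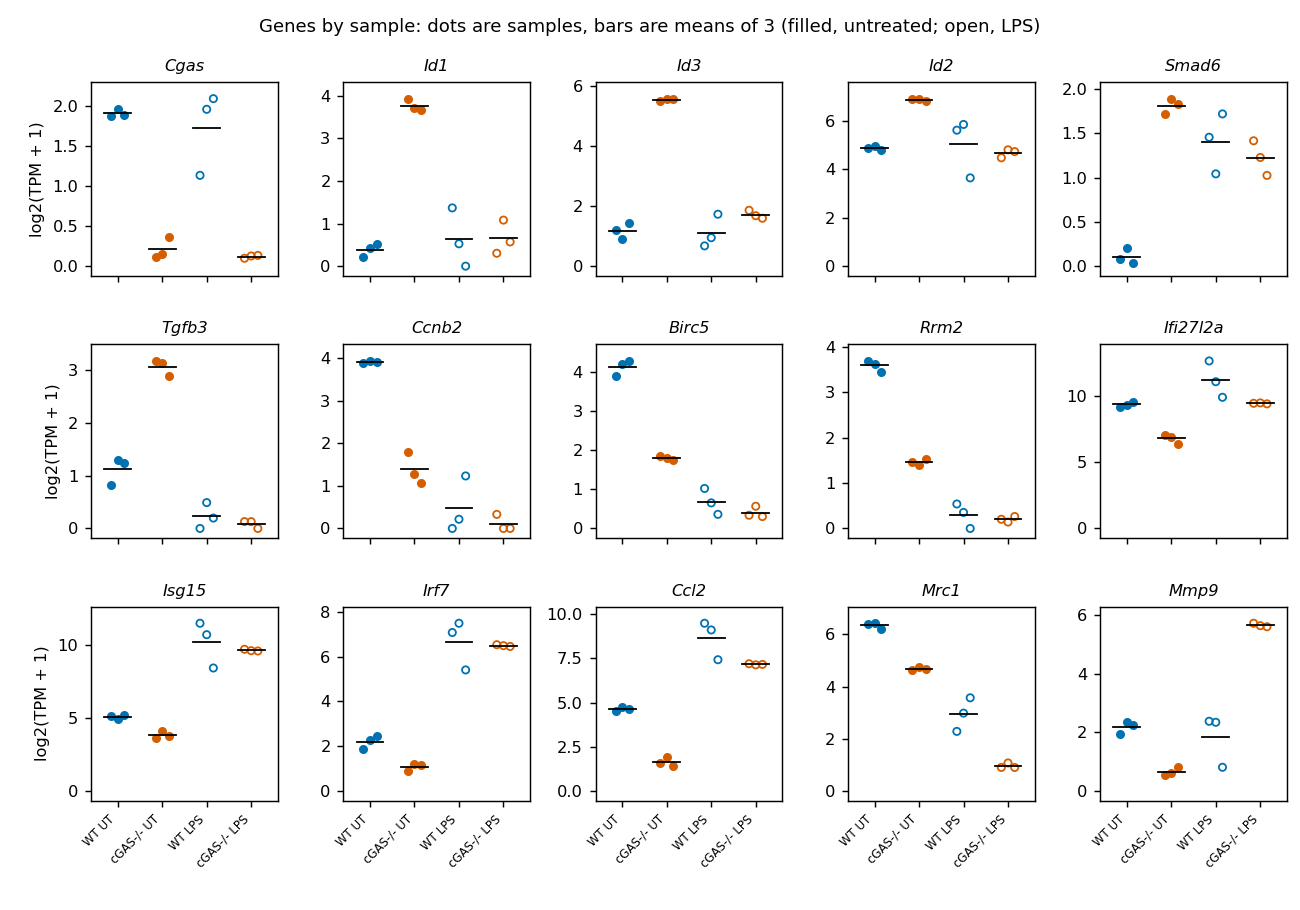
Values of 15 genes as log2(TPM + 1) (y axis, starting near 0 in each panel) in the 4 groups of the study, with dots for samples and bars for the mean of 3. The filled dots of the untreated genotypes do not overlap in any panel, and the open LPS dots of WT spread more widely than those of cGAS-/-.

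Of 33 tested matrix, adhesion and proteolysis genes, 9 fell and 10 rose (30.3% higher and 27.3% lower, against 4.67% and 9.08% of all genes). Here 6 rose without WT UT replicate 1 or cGAS-/- UT replicate 2, and 1 rose and 1 fell with all 12 samples in the fit. Integrin subunits led the rises, with Itgal (the alpha chain of LFA-1) at 0.802, 1.09 and 0.684 TPM in WT UT and 5.56, 5.18 and 4.48 TPM in cGAS-/- UT (log2 difference 1.71 ± 0.13, adjusted p = 0.000548). Itga6 (a laminin receptor chain) read 11.6, 12 and 11.3 TPM in WT UT and 28.6, 27.7 and 30.03 TPM in cGAS-/- UT (log2 difference 1.24 ± 0.06, adjusted p = 0.000124). Mmp9 (gelatinase B) fell, at 2.84, 4.09 and 3.77 TPM in WT UT and 0.465, 0.518 and 0.766 TPM in cGAS-/- UT (log2 difference -1.52 ± 0.15, adjusted p = 0.00164), as did the basement membrane collagen Col4a2 (-1.04). Mmp9 is also an osteoclast marker, and 5 of 6 tested genes of that list fell, with a median of -1.09 (0% higher and 83.3% lower, against 4.67% and 9.08% of all genes), and none passed with all 12 samples in the fit. Ctsk (cathepsin K, the bone-resorbing protease) read 36.1, 36 and 37.4 TPM in WT UT and 12.7, 12.4 and 11.2 TPM in cGAS-/- UT (log2 difference -1.52 ± 0.07, adjusted p = 0.000102). Acp5 (tartrate-resistant acid phosphatase) read 9.17, 7.89 and 8.03 TPM in WT UT and 2.53, 3.0 and 2.89 TPM in cGAS-/- UT (log2 difference -1.30 ± 0.09, adjusted p = 0.000502). Tnfrsf11a (the receptor RANK) stood at 23, 22.8 and 21.9 TPM in WT UT and 23.7, 26.9 and 23.3 TPM in cGAS-/- UT and did not pass (log2 difference 0.12 ± 0.07, adjusted p = 0.35). Of 37 tested lysosome genes 7 fell and 5 rose (median 0.01, 13.5% higher and 18.9% lower, against 4.67% and 9.08% of all genes), and Ctsl (cathepsin L) had the most even drop, at 665, 672 and 670.4 TPM in WT UT and 313, 312 and 317 TPM in cGAS-/- UT (log2 difference -1.09 ± 0.03, adjusted p = 3.04e-05). Among lysosome genes 1 rose without cGAS-/- UT replicate 1 or 2, 2 rose without WT UT replicate 1 or 2, 3 rose without WT UT replicate 3 or cGAS-/- UT replicate 3, and 0 rose and 1 fell with all 12 samples in the fit. The lysosomal sorting genes Gnptab (0.73) and Sort1 (0.47, lost without cGAS-/- UT replicate 1 or 2 at adjusted p = 0.0536 to 0.0548) rose. Of 13 V-ATPase proton pump genes and pseudogenes 5 fell and none rose (0% higher and 38.5% lower, against 4.67% and 9.08% of all genes), led by Atp6v0d2 (-0.87, 139.5, 149 and 146 TPM in WT UT and 73.5, 77.7 and 85 TPM in cGAS-/- UT), and 1 of them, Atp6v0c-ps2, is a pseudogene that shares 95.6% of its words with other transcripts. Of the pump genes 3 fell without WT UT replicate 2 or 3 or cGAS-/- UT replicate 2 or 3, and 0 rose and 0 fell with all 12 samples in the fit. The calls of Itgal, Mmp9, Ctsk, Acp5, Gnptab, Sort1, Atp6v0d2 and Atp6v0c-ps2 were lost with all 12 samples in the fit (adjusted p = 0.0566 to 0.9997).

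Lists of energy metabolism and stress differed in how many members passed. In glycolysis 1 of 19 rose and 0 fell (median -0.02, 5.26% higher and 0% lower, against 4.67% and 9.08% of all genes), with Hk2 (hexokinase 2) the riser at 4.08, 4.2 and 3.59 TPM in WT UT and 6.75, 7.1 and 6.4 TPM in cGAS-/- UT (log2 difference 0.65 ± 0.08, adjusted p = 0.005). Gapdh read 131, 131 and 139.7 TPM in WT UT and 121, 122 and 134 TPM in cGAS-/- UT (log2 difference -0.09 ± 0.06, adjusted p = 0.376) and did not pass. In nuclear genes of the respiratory chain 0 of 55 rose and 2 fell (median -0.08, 0% higher and 3.64% lower, against 4.67% and 9.08% of all genes), and the call of Ndufc2 (-0.33) was lost in 4 of the 6 omissions of a sample (adjusted p = 0.0848 to 0.0947). Of the respiratory chain 0 fell without WT UT replicate 1 or cGAS-/- UT replicate 1 or 3, 1 fell without WT UT replicate 2 or cGAS-/- UT replicate 2, and 0 rose and 0 fell with all 12 samples in the fit. In cholesterol synthesis 1 of 18 rose and 0 fell (median 0.14, 5.56% higher and 0% lower, against 4.67% and 9.08% of all genes), the riser Msmo1 (0.23) being lost in every omission (adjusted p = 0.0803 to 0.143). In lipid uptake, storage and LXR targets 6 of 22 rose and 6 fell (median -0.10, 27.3% higher and 27.3% lower, against 4.67% and 9.08% of all genes), led by the lipid droplet coat protein Plin2 at 345, 341 and 352 TPM in WT UT and 167, 171 and 172 TPM in cGAS-/- UT (log2 difference -1.02 ± 0.04, adjusted p = 4.56e-05). In the lipid list 3 rose without WT UT replicate 2 or 3 or cGAS-/- UT replicate 1 or 2, 3 fell without cGAS-/- UT replicate 2, and 0 rose and 0 fell with all 12 samples in the fit. Pltp, which transfers phospholipids, also fell (-0.94 ± 0.06). Targets of NRF2, the antioxidant factor, were split: 9 of 27 rose and 3 fell (median -0.01, 33.3% higher and 11.1% lower, against 4.67% and 9.08% of all genes). For NRF2 0 fell without WT UT replicate 3 or cGAS-/- UT replicate 1 or 2, 1 fell without WT UT replicate 1, and 0 rose and 0 fell with all 12 samples in the fit. Gclm, the modifier subunit of glutathione synthesis, read 24.9, 20.9 and 21.6 TPM in WT UT and 36.9, 42.5 and 44.8 TPM in cGAS-/- UT (log2 difference 0.85 ± 0.10, adjusted p = 0.00355), and Taldo1 of the pentose phosphate pathway rose too (0.63 ± 0.05). The calls of Hk2, Ndufc2, Msmo1, Plin2, Pltp, Gclm and Taldo1 were lost with all 12 samples in the fit (adjusted p = 0.192 to 0.9997).

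In the integrated stress response 0 of 24 rose and 2 fell (median -0.03, 0% higher and 8.33% lower, against 4.67% and 9.08% of all genes), and both Ddit3 (-0.71) and Nupr1 (-0.65) lost the call in 5 and 4 omissions (adjusted p = 0.0796 to 0.116 and 0.0827 to 0.0893). Of that list 0 fell without WT UT replicate 1 or 2 or cGAS-/- UT replicate 2, 1 fell without WT UT replicate 3 or cGAS-/- UT replicate 1, and 0 rose and 0 fell with all 12 samples in the fit. In the unfolded protein response 1 of 21 rose and 4 fell (median -0.13, 4.76% higher and 19% lower, against 4.67% and 9.08% of all genes), with the chaperone Calr down (-0.45 ± 0.05) and the sensor Atf6 up (0.52 ± 0.06). The counts of that response depended on single samples: 2 fell without WT UT replicate 1 or 3 or cGAS-/- UT replicate 1 or 2, 10 fell without cGAS-/- UT replicate 3, and 0 rose and 0 fell with all 12 samples in the fit. Among proteasome subunits 1 of 29 rose and 2 fell (median -0.11, 3.45% higher and 6.9% lower, against 4.67% and 9.08% of all genes), and among mitochondrial ribosomal proteins 0 of 54 rose and 3 fell (median -0.11, 0% higher and 5.56% lower, against 4.67% and 9.08% of all genes). For the proteasome 0 rose without WT UT replicate 1 or 3 or cGAS-/- UT replicate 1, 2 or 3, 0 fell without WT UT replicate 2 or 3 or cGAS-/- UT replicate 1, 2 or 3, and 0 rose and 0 fell with all 12 samples in the fit. Among the mitochondrial ribosomal proteins 0 fell without cGAS-/- UT replicate 2, 1 fell without WT UT replicate 1 or 3 or cGAS-/- UT replicate 1, and 0 rose and 0 fell with all 12 samples in the fit. Cytosolic ribosomal proteins shifted by little: 14 of 58 rose and 0 fell (median 0.17, 24.1% higher and 0% lower, against 4.67% and 9.08% of all genes), and 57 of 58 had a difference above 0. Rpl23 read 322, 307 and 316 TPM in WT UT and 376, 398 and 391 TPM in cGAS-/- UT (log2 difference 0.30 ± 0.04, adjusted p = 0.00636). Of these proteins 6 rose without cGAS-/- UT replicate 2, 7 rose without WT UT replicate 1 or 2, 8 rose without WT UT replicate 3, 9 rose without cGAS-/- UT replicate 1, and 0 rose and 0 fell with all 12 samples in the fit. Their median stayed above 0 under each scaling tried (0.09 to 0.25 over all alternatives), and the number that rose ran from 0 to 37. The calls of Ddit3, Nupr1, Calr, Atf6 and Rpl23 were lost with all 12 samples in the fit (adjusted p = 0.9997).

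**Figure D4:**
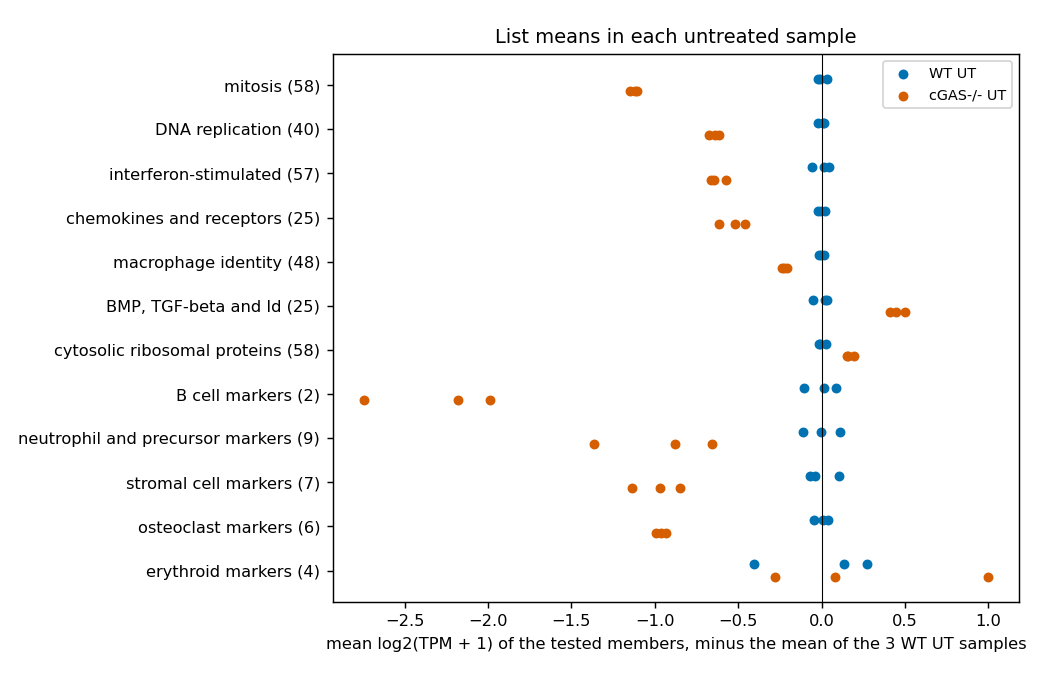
Mean log2(TPM + 1) of the tested members of 12 lists (rows, number tested in brackets) in each untreated sample, minus the mean of the 3 WT samples (x axis), with blue dots for WT UT and orange dots for cGAS-/- UT. The genotypes are apart in each list except the erythroid markers, and the marker lists of other cells (last 5 rows) rest on 2 to 9 genes.

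Several markers of other cell types were lower in the knockout. Immunoglobulin transcripts were among them: Igkc, the kappa constant region, read 62.8, 85.3 and 97 TPM in WT UT and 6.51, 10.1 and 3.33 TPM in cGAS-/- UT (log2 difference -3.52 ± 0.35, adjusted p = 0.00173), with 97.8% of its transcript words shared with the gene model Gm68839, and Ighm, the mu chain, read 42.8, 37.3 and 36.3 TPM in WT UT and 20.01, 17.5 and 15.6 TPM in cGAS-/- UT (log2 difference -1.09 ± 0.11, adjusted p = 0.00171). These were the 2 of 17 listed B cell markers that could be tested, while the defining gene Pax5 (at most 0.0221 TPM) was near 0 and Rag1 was at 0 in all 6 samples. The summed level of the B cell list was 112 to 136 TPM in WT UT and 21 to 29.8 TPM in cGAS-/- UT. Of 9 tested neutrophil and precursor markers (of 20 listed) 4 fell and none rose (0% higher and 44.4% lower, against 4.67% and 9.08% of all genes), and their sum was 181 to 258 TPM in WT UT and 88.2 to 169.7 TPM in cGAS-/- UT. Ngp, a granule protein of neutrophil precursors, read 26.3, 32.3 and 24.1 TPM in WT UT and 0.657, 2.22 and 3.13 TPM in cGAS-/- UT (log2 difference -3.34 ± 0.33, adjusted p = 0.00177). Padi4, the citrullinating enzyme of extracellular traps, fell as well (-1.24 ± 0.12). S100a8 overlapped, at 73.1, 38.9 and 37.5 TPM in WT UT and 21.5, 27.7 and 50.1 TPM in cGAS-/- UT (log2 difference -0.60 ± 0.37, adjusted p = 0.365), and the defining primary granule genes were under 1 TPM in all 6 samples, with Elane at 0.774, 0.844 and 0.945 TPM in WT UT and at 0 in cGAS-/- UT, and Mpo at most 0.257 TPM in WT UT and 0.0093 TPM in cGAS-/- UT. The call of Ighm was lost with all 12 samples in the fit (adjusted p = 0.604).

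Of 7 tested stromal markers 5 fell (0% higher and 71.4% lower, against 4.67% and 9.08% of all genes), among them Sparc (-0.95) and Col1a1 (-0.75), with a sum of 20.7 to 25.4 TPM in WT UT and 5.95 to 8.75 TPM in cGAS-/- UT. The floor for testing can be reached through the WT samples alone, so this share depends on it. With no filter on low values 2 of 14 stromal markers fell, and under a floor of 5 TPM none could be tested. Of the stromal markers 0 fell without cGAS-/- UT replicate 2, 1 fell without WT UT replicate 2 or cGAS-/- UT replicate 3, 2 fell without WT UT replicate 3, 3 fell without cGAS-/- UT replicate 1, and 0 rose and 1 fell with all 12 samples in the fit. Of 4 tested dendritic cell markers 1 fell (25%, against 9.08% of all genes), namely Bst2 (-0.54), which interferon also induces. In this list 2 were lower without cGAS-/- UT replicate 1 and none with all 12 samples in the fit. The list summed to 128 to 145 TPM in WT UT and 92.2 to 100.4 TPM in cGAS-/- UT. The single T and NK cell marker tested, Cd28, fell (-0.51 ± 0.08), with Cd3e at most 0.136 TPM, Cd8b1 and Trbc2 at 0, and a list sum of 11.1 to 12.9 TPM in WT UT and 7.57 to 8.21 TPM in cGAS-/- UT. None of 4 tested erythroid markers passed (against 13.7% of all genes), and the sum was 5.82 to 9.71 TPM in WT UT and 5.09 to 17.9 TPM in cGAS-/- UT, with Slc4a1 and Car1 at 0. Mast cell and basophil markers were under the floor for testing and summed to 0.47 to 0.855 TPM in WT UT and 0.683 to 1.41 TPM in cGAS-/- UT. In bulk samples, fewer cells of a type and less RNA per cell cannot be told apart, and the part that such cells have in the differences above was not tested. The calls of Sparc, Col1a1, Bst2 and Cd28 were lost with all 12 samples in the fit (adjusted p = 0.0597 to 0.9997).

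Features other than protein-coding genes held many of the extreme values. They made up 227 of the 1234 genes that passed, and the share that passed was 10.4% of long non-coding RNAs, 10.7% of processed pseudogenes, 10.8% of symbols not matched to the annotation and 13.99% of other types, beside 14.4% of protein-coding genes and 13.7% of all genes. Mir6236 (chr9:110110355-110110477), chosen after its values were seen, read 16975, 15586 and 16489.5 TPM in WT UT and 676, 664 and 617 TPM in cGAS-/- UT (log2 difference -4.65 ± 0.05, adjusted p = 4.02e-07). Lars2, which encodes the mitochondrial leucyl-tRNA synthetase and lies on the same chromosome, followed it at 59.9, 58.7 and 59.3 TPM in WT UT and 3.36, 3.55 and 4.17 TPM in cGAS-/- UT (log2 difference -3.69 ± 0.08, adjusted p = 9.86e-06). Both features are known to collect reads of ribosomal RNA in mouse libraries, and how much of their difference is such reads was not tested. Gm10800, listed in no gene model of the annotation used, read 148, 382 and 214 TPM in WT UT and 0, 1.48 and 1.07 TPM in cGAS-/- UT (log2 difference -7.06 ± 0.45, adjusted p = 0.000341). The features Gm10718 and Gm10801 were listed at 0 in all knockout samples and at 28.9, 61.9 and 47.6 TPM and 18.9, 54.9 and 28.9 TPM in WT. Snora17, a small nucleolar RNA, was listed at 21.4, 14.6 and 55.9 TPM in WT and at 0 in the knockout, and every transcript word of it lies in its host Snhg7. Psenen-ps went the other way, at 15.7, 31.2 and 25.3 TPM in the knockout and at or next to 0 in WT, but all of its words are those of its parent Psenen, which read 23.7, 24 and 29.7 TPM in WT UT and 21.1, 19.6 and 21.8 TPM in cGAS-/- UT (log2 difference -0.29 ± 0.10, adjusted p = 0.12). Gm43712 was at 0 in WT and at 5.14, 5.38 and 4.39 TPM in the knockout, Gm37758 at 0 and 3.77, 5.13 and 4.55 TPM, and Gm18924 at 0 and 1.92, 1.55 and 3.16 TPM. The first 2 of these share 60.9% and 95.3% of their words with other genes. The calls of Snora17, Gm37758 and Gm18924 were lost with all 12 samples in the fit (adjusted p = 0.0523 to 0.217).

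Genes near the deleted locus were counted separately. Of 25 other genes tested within 5 Mb (megabases) of Cgas, 4 were higher and 2 lower (24.0%), against 13.7% of all genes tested. Within 10 Mb 11 of 66 passed (16.7%), and within 20 Mb 30 of 165 (18.2%), beside 13.7% farther away on chromosome 9. The higher neighbours were Gclc (0.48), Elovl5 (0.45), Eef1a1 (0.40) and Tmem30a (0.29), and the lower ones Arpp19 (-0.40) and Gm9531 (-0.90), named because so few passed. Across chromosomes the share that passed ran from 10.1% on chromosome 8 to 17.4% on chromosome 1, and chromosome 9 had 14.9%.

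**Figure D5:**
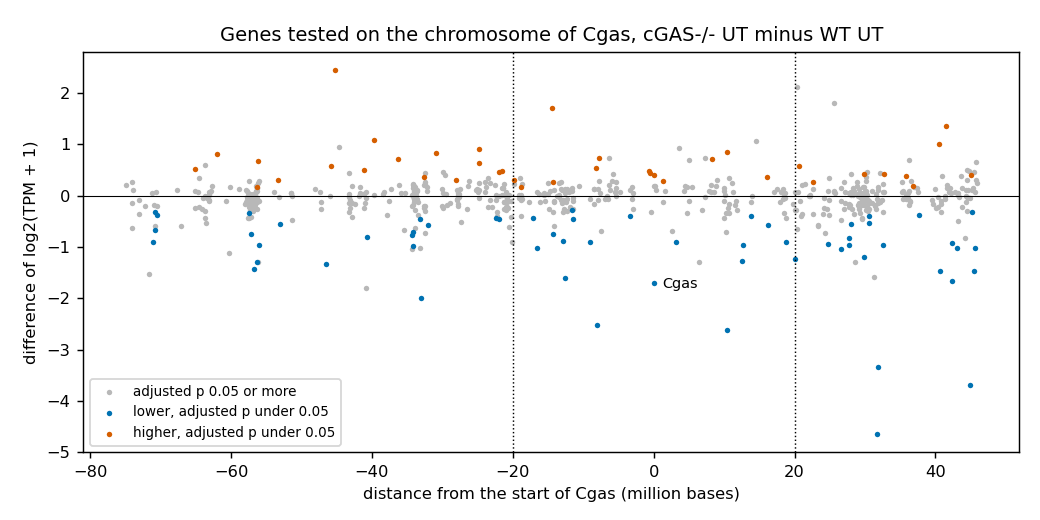
Genes tested on chromosome 9 by the distance of their start from that of Cgas in Mb (x axis) and their log2 difference, cGAS-/- UT minus WT UT (y axis), coloured where the adjusted p was under 0.05, with dotted lines at 20 Mb on either side. Passing genes lie along the whole chromosome, and those within 5 Mb, other than Cgas, stay within 1 of 0.

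The same genes were then read in the LPS samples, which share no sample with the comparison above. Of the 815 genes lower at rest, 120 (14.7%) had all 3 cGAS-/- LPS samples below all WT LPS samples, against 4.64% of all genes tested, and 96 (11.8%) had them above, against 14.1%. The mean of the knockout was lower with LPS in 392 and higher in 417 of these genes, and their median difference was 0.0083, against 0.29 over all genes. Of the 419 genes higher at rest, 112 (26.7%) had them above, against 14.1% of all genes, and 11 (2.63%) had them below, against 4.64%. WT LPS replicate 3 stood apart, with 18.5% of its TPM in protein-coding genes against 46.6% to 54.4% in the other LPS samples, and without it the share below became 36.8% against 15.6% for the lower genes and the share above 32.5% against 17.4% for the higher genes. The knockout mean was then lower in 530 and higher in 279 of the genes lower at rest. Their median difference became -0.17, against 0.07 over all genes, so the balance given above rests on that sample. Ccl6 kept its direction, with 244, 215 and 104 TPM in WT LPS and 27.8, 35.4 and 29.6 TPM in cGAS-/- LPS, and so did Mrc1, with 3.85, 6.89 and 10.9 TPM in WT LPS and 0.86, 1.1 and 0.857 TPM in cGAS-/- LPS. Id3 read 0.598, 0.93 and 2.32 TPM in WT LPS and 2.64, 2.21 and 2.03 TPM in cGAS-/- LPS, where the overlap rests on WT LPS replicate 3. Ccnb2 was low in both genotypes after LPS, with 0, 0.161 and 1.35 TPM in WT LPS and 0.257, 0 and 0 TPM in cGAS-/- LPS. The difference between the genotype effects was tested as an interaction, which passed in 98 genes (1.09%). This count rests on single LPS samples: 81 were more positive and 17 more negative with LPS, but 1426 and 117 without WT LPS replicate 2 and 323 and 163 without WT LPS replicate 3. Without WT LPS replicate 1 they were 77 and 28, and without cGAS-/- LPS replicates 1, 2 and 3 in turn 31, 34 and 33 were more positive and 10, 7 and 8 more negative.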

How the data were processed

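RNA was sequenced from 12 samples of mouse macrophages with a strand-specific mRNA kit and paired-end reads. According to the submitters' processing notes, fastp, STAR and kallisto were used on the GRCm39 build, with versions not given in the sources used here. The values the authors deposited are 1 table of TPM per gene symbol, read here as kallisto TPM averaged over the transcripts of a symbol because each sample sums to less than the per-million total. Levels of different genes are therefore not comparable, and the sums over a list weigh its genes unequally. Differences of a gene between samples can be read but depend on the scaling. The table gives no counts, so the depth is unknown and no interval for counting error can be given. Of 38739 symbols 35599 matched the GENCODE annotation, and 14304 of 21751 protein-coding genes (65.8%) are listed, all but 1 of them on chromosomes 1 to 13. Other genes were not analysed here, and the values of a few are not reported here.

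Untreated samples were grouped by their labels, 3 per genotype. Genes at 1 TPM or more in at least 3 of 6 samples were compared on log2(TPM + 1) with limma 3.58.1 in R 4.3.3 (variance trend, moderated test, two-sided, Benjamini-Hochberg adjustment), and the procedure was tested on simulated data. The interaction with LPS was fitted on all 12 samples. Shared transcript words are 31-base sequences of one gene that also occur in GENCODE transcripts of other genes. Named genes were Cgas, the 15 largest rises and 15 largest falls among protein-coding genes that passed without overlap, up to 4 passing members per list by size (2 by level where fewer than 2 passed), Id and cGAS pathway genes, and up to 4 other features in each direction. Further genes were named after their values were seen, among them Isg15, Irf7, Mki67, Top2a, Cdk1, Pcna, Bmp2, Grem1, Ccr1, Ccr2, Lyz2, Cd68, Itgam, Msr1, Hmox1, Ccl3, Il1b and Mir6236. The comparison and the lists were chosen with earlier results of these data known, and lists are described by counts only. Alternatives were other pseudocounts (0.1 and 5), floors, scalings, variance models, a replicate block, all 12 samples and the omission of single samples.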

Additional observations from a re-analysis of the deposited data

Results flagged for a closer look

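In 20 of the named genes the genotype difference was not the same without and with LPS, by limma's interaction term over all 12 samples with Benjamini-Hochberg adjustment (98 of 8975 genes, 1.09%). Values are the LPS difference minus the resting difference on log2(TPM + 1), ± SE. Most of these genes were named for a large resting difference, which the interaction contains, so a sign opposite to the resting difference follows from the choice and the values are a description only. Among genes higher in the resting knockout they were Id3 -3.77 ± 0.38, Id1 -3.36 ± 0.44, Tgfb3 -2.09 ± 0.27, Smad6 -1.89 ± 0.27 and Sox4 -1.53 ± 0.25.

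Among division genes lower at rest they were Ccnb2 2.15 ± 0.43, Ube2c 2.38 ± 0.34, Birc5 2.05 ± 0.29, Ckap2l 2.53 ± 0.31, Rrm2 2.03 ± 0.25, Tk1 1.38 ± 0.23 and E2f8 1.69 ± 0.32. Rrm2, for instance, was near 0 in both genotypes with LPS, at 0.452, 0.277 and 0 TPM in WT LPS and 0.15, 0.103 and 0.20 TPM in cGAS-/- LPS, which leaves little room for a difference there.

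In other genes the difference with LPS was above 0 after a drop at rest. Mmp9 (gelatinase B) fell at rest and stood at 4.18, 4.06 and 0.744 TPM in WT LPS and 51.8, 48.9 and 47.6 TPM in cGAS-/- LPS, an interaction of 5.34 ± 0.51. The membrane genes and others followed with Tmem176a 3.90 ± 0.69, Tmem176b 3.77 ± 0.61, Herpud1 1.89 ± 0.32, Chil3 2.0 ± 0.40 and Col4a2 1.58 ± 0.30. The resting drop of Herpud1 itself (log2 difference -0.80) lost its call without WT UT replicate 1 or 3 or cGAS-/- UT replicate 1 or 2 (adjusted p = 0.0607 to 0.0644, limma), with no filter on low values and with all 12 samples in the fit. For the features with shared sequence, which were higher at rest, the values were Psenen-ps -4.33 ± 0.38 and Gm43712 -2.63 ± 0.46.

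Leaving out LPS samples or adding a replicate block lost the interaction call of Sox4, Ccnb2, Tmem176a, Gm43712, Tk1, E2f8, Chil3, Herpud1 and Col4a2 in at least 1 setting.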

How the results depend on the processing

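Among the 123 genes named by the rule, none changed direction under the 19 alternatives, and of the 116 named genes that passed 41 stayed past the threshold under each alternative that tested them (at least 17 for each). Higher genes (419) numbered 249 with no filter on low values, 662 after quantile normalization, 30 with all 12 samples in the fit and 203 to 278 without 1 sample. Lower genes (815) numbered 171 with all 12 samples and 509 to 628 without 1 sample. Past both thresholds, the 6 higher genes became 16 with a pseudocount of 0.1, 2 with 5, 3 among protein-coding genes only and 7 to 12 without 1 sample, and the 48 lower genes became 116, 17 and 21 under the first 3 of these. The 81 interaction genes more positive with LPS ran from 31 to 1426 and the 17 more negative from 7 to 163 when 1 LPS sample was left out. Whether the shared replicate numbers pair the samples is unknown. The deviations of same-numbered samples from their group means correlated at -0.00278, -0.077 and 0.0206, which cannot exclude pairing. With the replicate block there were 182 higher and 456 lower genes, and 36 and 9 interaction genes. Scaling to a common protein-coding total, chosen after seeing the data, gave 513 higher and 697 lower genes. The causes were not tested. Low values have unknown depth behind them.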
